A study of Ovis aries with 6 samples.

Results

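The insulin-like growth factor (IGF) system was examined in single-cell RNA sequencing of 6 whole ovaries from Hu sheep through 10 genes listed by name: the ligands IGF1 and IGF2, the receptor IGF1R, the binding proteins IGFBP2, IGFBP3, IGFBP4, IGFBP5, IGFBP6 and IGFBP7, and the protease PAPPA. All 10 of 10 were found among the 30574 genes of the series. They were listed by name and role, with earlier results of these data known. The ovaries came from 3 ewes of high litter size (HLS, at least 3 lambs) and 3 ewes of low litter size (LLS, labelled as fewer than 2 lambs). Each ewe gave 1 ovary and 1 library, named HLS1 to HLS3 and LLS1 to LLS3 here. All ewes were in estrus, detected with a ram, none was described as treated, and no genotype or age was given in the labels. The grouping therefore rests on lambing records, and 1 ovary in 1 estrus stood for each ewe. Whole ovaries were dissociated with collagenase and trypsin, so a cell type is seen only as far as it survived digestion and capture.

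IGF1 and IGF2 are secreted peptides that signal through IGF1R, a receptor tyrosine kinase at the cell surface. Most of the ligand outside cells is held by IGF binding proteins, which limit or prolong its access to the receptor, and PAPPA is a secreted protease that cuts some of them and releases the ligand. In the ovarian follicle, IGF signalling acts together with the gonadotropins on the proliferation and steroid output of granulosa cells, which line the follicle, and of theca cells, which surround it.

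After filtering, 36457 cells remained, between 5189 and 7096 per ewe, with a median of 5202 to 9782.5 unique molecular identifiers (UMI, 1 per captured RNA molecule) per cell. The cells fell into 29 clusters, and 27 of them could be named by markers, 2 of these only as cycling cells. The granulosa-like clusters had 4 to 9 of the granulosa markers raised. The named types held 2858 granulosa-like, 1912 theca-like, 8281 stromal-like, 2653 perivascular-like, 14282 blood endothelial-like, 791 lymphatic endothelial-like, 1681 lymphoid or other immune-like, 1015 macrophage-like, 411 B cell-like, 332 epithelial-like and 137 Schwann-like cells. Libraries shared 141 of 36316 distinct cell barcodes (0.388%). Some clusters came mainly from few ewes: 4208 of the 4316 cells of endothelial cluster 3 came from HLS2 and LLS1. A level below is the number of UMI of a gene per 10000 UMI of all genes, computed on the summed cells of a type in each ewe and given as mean ± SD over ewes, with n = 6 unless another number is given. Each molecule gave 1 tag at its 3′ end, so levels were not divided by gene length. A difference in level between cell types is a description over ewes and carries no test.

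IGF1 was read mainly in lymphatic endothelial-like and stromal-like cells and hardly at all in granulosa-like cells. In lymphatic endothelial-like cells its level was 7.66, 10.5 and 7.98 UMI per 10000 in HLS1 to HLS3 and 13.2, 7.15 and 12.2 in LLS1 to LLS3, a mean of 9.79 ± 2.56. In stromal-like cells the level was 2.43, 2.64 and 2.60 in HLS1 to HLS3 and 2.17, 5.54 and 1.48 in LLS1 to LLS3, a mean of 2.81 ± 1.40. The lymphatic level was above the stromal one in 6 of 6 ewes, by 3.68-fold, and the values did not overlap, with LLS2 the highest stromal value. Macrophage-like cells followed at 1.05 ± 0.413 and Schwann-like cells at 0.795 ± 0.479 (n = 5). Theca-like cells at 0.0521 ± 0.0524, blood endothelial-like cells at 0.0462 ± 0.0295 and granulosa-like cells at 0.0356 ± 0.0157 were lowest and overlapped each other. The granulosa value rested on 100 UMI over all ewes. At least 1 IGF1 UMI was seen in 85.1% of lymphatic endothelial-like cells and in 2.67% of immune-like cells, mainly lymphocytes and taken as a type low in IGF1, at median depths of 5805 and 2372 UMI per cell. After thinning every cell to 1000 UMI these shares were 51.9% and 1.10%, and the granulosa share was 0.562% (3.37% before thinning, at a median depth of 8148 UMI).

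The stromal IGF1 was uneven between clusters. Stromal cluster 9, led by SERPINF1, DPT and PTGDS, held 8.37, 12.5 and 11.8 UMI per 10000 in HLS1 to HLS3 and 8.45, 11.9 and 10.2 in LLS1 to LLS3, a mean of 10.5 ± 1.81. The genes of the IGF system were left out of the clustering, but IGF1 was among the genes that led this cluster once it was formed, so its height there describes the cluster. Cluster 1, led by the smooth muscle genes ACTA2 and TAGLN, had a mean level of 2.13 ± 0.634. It was named stromal-like by the sum of its markers, but its leading genes held ACTA2, on the perivascular list, beside COL1A1, on the stromal list, so its name is doubtful. As it made up 4399 of the 8281 stromal-like cells, stromal values are also given by cluster where they matter. For IGF1, cluster 5, led by PTCH1, the receptor of hedgehog ligands, and LUM, a collagen-binding proteoglycan, had 0.246 ± 0.0675. Cluster 9 lay 5.07-fold above cluster 1 and 41.9-fold above cluster 5 in IGF1 level, in 6 of 6 ewes and without overlap. It held 625 of the 1386 stromal-like cells of LLS2. In HLS1 to HLS3 it held 203 of 1745, 187 of 1487 and 267 of 1650, and in LLS1 and LLS3 97 of 839 and 146 of 1174. The stromal values of LLS2 therefore rest more on cluster 9 than those of the other ewes.

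IGF2 had a different source. Its level in perivascular-like cells, the pericytes and smooth muscle of vessels, was 27.6, 33.7 and 27.3 UMI per 10000 in HLS1 to HLS3 and 27.7, 24.1 and 24.7 in LLS1 to LLS3, a mean of 27.5 ± 3.39. Theca-like cells had levels of 8.35, 9.64 and 12.9 in HLS1 to HLS3 and 8.84, 10.9 and 12.7 in LLS1 to LLS3, a mean of 10.5 ± 1.93. The stromal-like mean level was 12.3 ± 3.14, which was 2.29-fold below the perivascular one in 6 of 6 ewes with no overlap. Stromal-like and theca-like levels overlapped, with the stromal one higher in 5 of 6 ewes. Blood endothelial-like cells followed at 3.65 ± 1.41, a level 3.09-fold below theca-like cells in 6 of 6 ewes and without overlap. Granulosa-like cells had a level of 0.693 ± 0.253, and lymphatic endothelial-like and macrophage-like cells had the lowest levels, 0.387 ± 0.176 and 0.312 ± 0.083. The 2 ligands thus differed in order: lymphatic endothelial-like cells were at the top for IGF1 and near the bottom for IGF2.

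**Figure D1:**
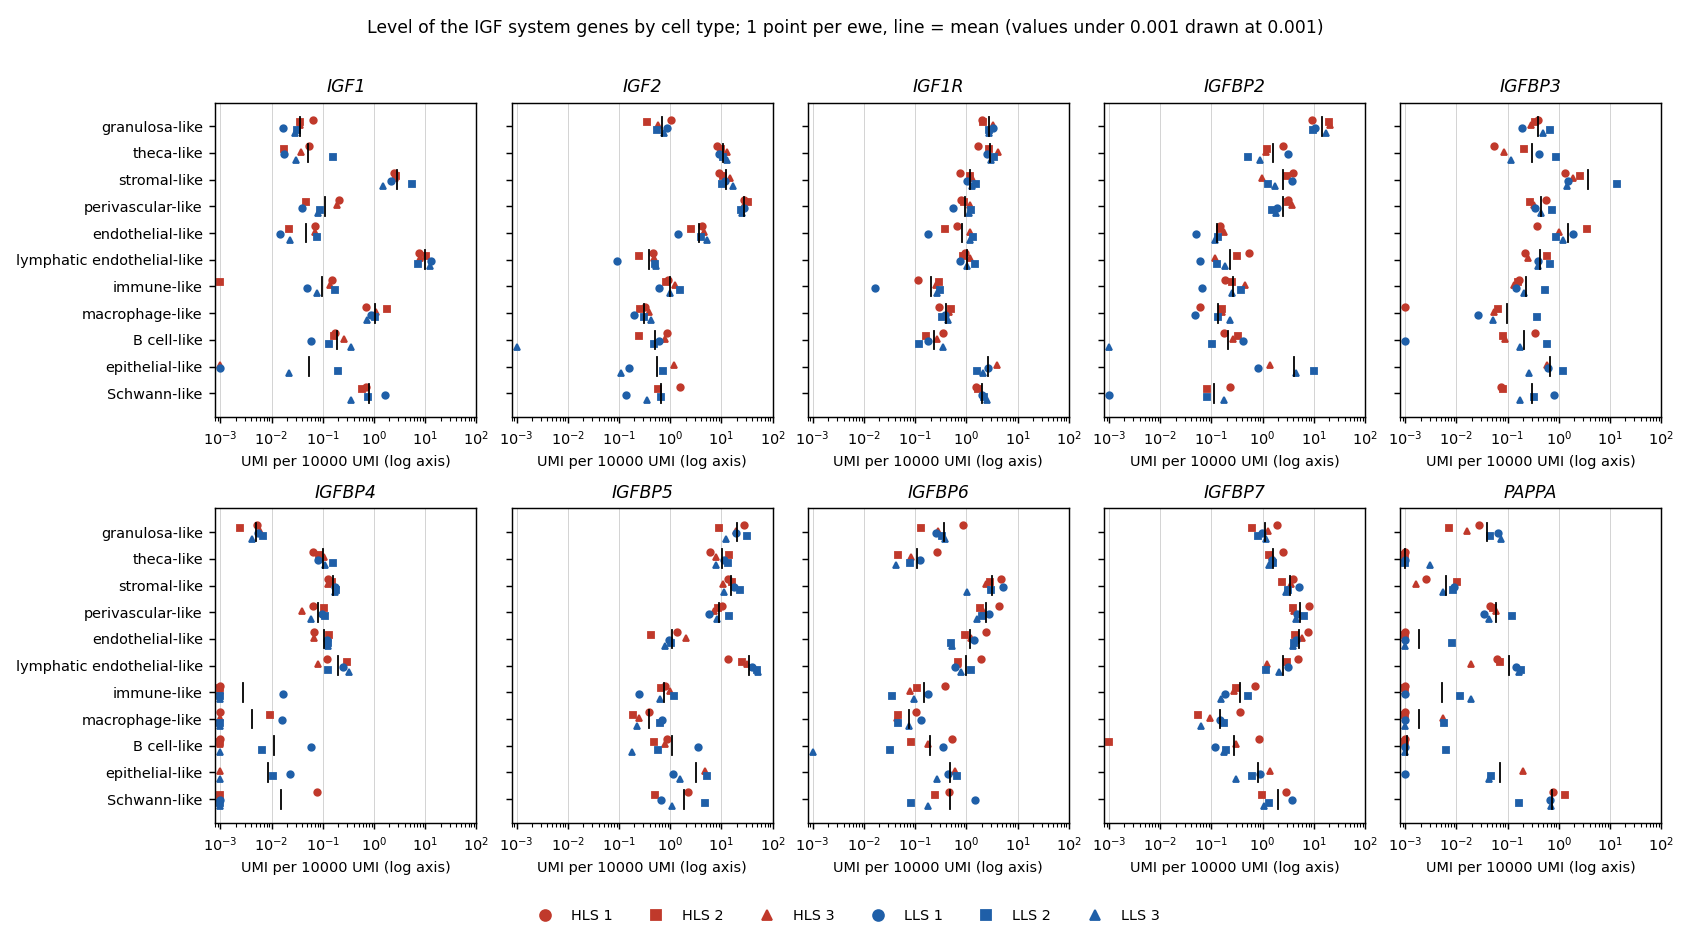
Level of each of the 10 genes (x axis, UMI per 10000 UMI, log axis) in 11 cell types (y axis), with 1 point per ewe, HLS in red and LLS in blue, and a line at the mean over ewes. IGF1 peaks in lymphatic endothelial-like cells (mean 9.79), IGF2 in perivascular-like cells (27.5) and IGFBP2 in granulosa-like cells (14.5), while all IGFBP4 and PAPPA means lie below 1.

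Within the vessel wall, IGF2 separated the clusters widely. Perivascular cluster 8, led by the pericyte gene RGS5, had levels of 33.3, 44.7 and 57.4 UMI per 10000 in HLS1 to HLS3 and 32.4, 29.5 and 29.5 in LLS1 to LLS3, a mean of 37.8 ± 11.1. Cluster 12, led by the smooth muscle myosin gene MYH11, had a mean IGF2 level of 1.67 ± 0.743, which was 23.6-fold lower in 6 of 6 ewes. Cells of cluster 12 were shallow, with a median depth that was 0.337 of that of their own libraries. Among blood endothelial-like cells, cluster 11, led by CXCL12 and the arterial connexin genes GJA5 and GJA4, had IGF2 levels of 14.3, 12.7 and 17.2 in HLS1 to HLS3 and 8.51, 19.5 and 16.6 in LLS1 to LLS3, a mean of 14.8 ± 3.86. Endothelial clusters 2, 3, 4 and 18 had mean IGF2 levels from 1.92 to 3.26, and cluster 11 lay 4.51- to 8.92-fold above them in 6 of 6 ewes without overlap. Cluster 3, which came mainly from HLS2 and LLS1, was at 0.691 when pooled over cells. Endothelial cluster 21 (188 of 243 cells from LLS2) was at 4.72 when pooled, and was not compared because some ewes had too few cells. In the stroma, cluster 5, the lowest for IGF1, had the highest IGF2 level, 17.3 ± 5.16, 1.89-fold above cluster 1 and 1.91-fold above cluster 9 in 6 of 6 ewes.

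IGF1R, the receptor, was spread more evenly than either ligand. Its level was 1.66, 2.78 and 4.08 UMI per 10000 in theca-like cells of the HLS ewes and 2.49, 3.46 and 3.01 in those of the LLS ewes, a mean of 2.91 ± 0.829. In granulosa-like cells the level was 2.06, 2.12 and 3.34 in HLS1 to HLS3 and 3.34, 2.78 and 2.76 in LLS1 to LLS3, a mean of 2.73 ± 0.562. Theca-like and granulosa-like values overlapped, and so did those of epithelial-like cells (2.60 ± 1.01, n = 4). Schwann-like cells came next at 1.98 ± 0.401 (n = 5), above stromal-like cells in 5 of 5 ewes with overlapping ranges. Stromal-like, lymphatic, perivascular-like and blood endothelial-like cells followed at 1.18 ± 0.277, 1.03 ± 0.259, 0.955 ± 0.258 and 0.823 ± 0.484, each overlapping its neighbour. Immune-like cells had the lowest level, 0.208 ± 0.117. At least 1 IGF1R UMI was seen in 69.4% of granulosa-like and 73.6% of theca-like cells, at median depths of 8148 and 14260 UMI, and in 4.81% of immune-like cells at 2372 UMI. Within the blood endothelium, cluster 2, led by CA4 and PPP1R1B, had an IGF1R level of 1.16 ± 0.236 and cluster 3, led by the tip cell gene ESM1, one of 0.154 ± 0.133, 8.63-fold lower in 6 of 6 ewes without overlap. Cluster 3 is the one that came mainly from HLS2 and LLS1.

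IGFBP2 had its highest mean level in granulosa-like cells. Its level there was 9.05, 19.6 and 21.2 UMI per 10000 in HLS1 to HLS3 and 10.3, 9.70 and 17.2 in LLS1 to LLS3, a mean of 14.5 ± 5.44. The next level was in epithelial-like cells, 4.18 ± 4.23 over 4 ewes, with the granulosa value higher in 3 of the 4. Perivascular-like (2.55 ± 0.907), stromal-like (2.45 ± 1.28) and theca-like cells (1.58 ± 1.02) overlapped, and blood endothelial-like cells had a level of 0.129 ± 0.044. At least 1 IGFBP2 UMI was seen in 90.4% of granulosa-like cells, against 9.65% of endothelial-like cells at a median depth of 8634 UMI. In the perivascular-like clusters IGFBP2 and IGF2 lay in opposite order. This was not so in the blood endothelium, where cluster 11 had the highest mean of both. IGFBP2 levels were low there, and cluster 11 (0.327 ± 0.122) overlapped clusters 18, 3 and 2 (means 0.269, 0.240 and 0.150). The MYH11-led perivascular cluster 12 had levels of 11.5, 8.63 and 6.42 in HLS1 to HLS3 and 8.35, 4.84 and 6.71 in LLS1 to LLS3 (mean 7.74 ± 2.31), against 1.30, 1.31 and 0.602 in HLS1 to HLS3 and 0.709, 0.674 and 0.859 in LLS1 to LLS3 for the RGS5-led cluster 8 (mean 0.908 ± 0.317). The cluster 12 level was 8.54-fold the higher, in 6 of 6 ewes and without overlap. In the stroma the ACTA2-led cluster 1 had the highest mean IGFBP2 level, 3.89 ± 1.46, 5.38-fold above cluster 9 in 6 of 6 ewes.

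**Figure D2:**
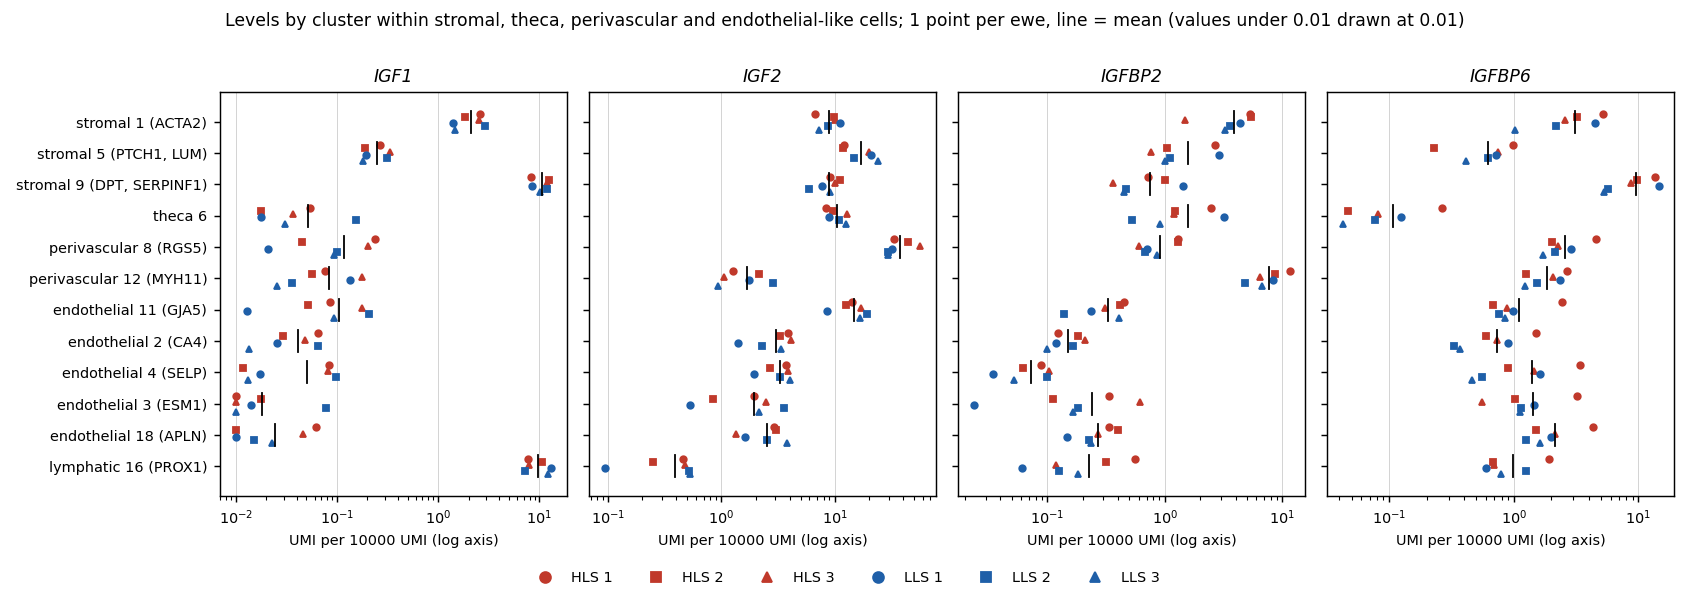
Levels of IGF1, IGF2, IGFBP2 and IGFBP6 (x axes, UMI per 10000 UMI, log axis) in the stromal, theca, perivascular and endothelial-like clusters (y axis), with 1 point per ewe and a line at the mean. IGF2 is high in perivascular cluster 8 (mean 37.8) and low in cluster 12 (1.67), IGFBP2 lies the other way round (0.908 and 7.74), and IGF1 and IGFBP6 are both highest among stromal clusters in cluster 9 (10.5 and 9.59).

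IGFBP5, a binding protein that also attaches to the extracellular matrix, had its highest mean levels in lymphatic endothelial-like and granulosa-like cells. The lymphatic level was 13.3, 25.1 and 31.2 UMI per 10000 in HLS1 to HLS3 and 38.9, 48.9 and 52.1 in LLS1 to LLS3, a mean of 34.9 ± 14.7. The granulosa level was 28.1, 9.07 and 19.2 in HLS1 to HLS3 and 19.2, 32.0 and 12.3 in LLS1 to LLS3, a mean of 19.97 ± 8.82. The lymphatic value was higher in 5 of 6 ewes and the ranges overlapped. Pooled over ewes, IGFBP5 was at 47.8 in granulosa cluster 15 and at 2.89, 1.67 and 0.31 in granulosa clusters 10, 19 and 23. The granulosa mean therefore rested on cluster 15, led by GCG, TIMP1 and PLIN2. That cluster had 4 granulosa markers raised, the fewest of the granulosa-like clusters, so its name is less certain. Stromal-like, theca-like (10.1 ± 3.39) and perivascular-like cells (8.97 ± 2.94) followed with overlapping neighbours, and macrophage-like cells had the lowest level, 0.394 ± 0.216.

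IGFBP3, the main carrier of IGF in blood plasma, was a stromal and endothelial transcript here, and 1 ewe set its stromal mean. Its stromal level was 1.34, 2.63 and 1.92 UMI per 10000 in HLS1 to HLS3 and 1.51, 13.9 and 1.46 in LLS1 to LLS3, with LLS2 far above the other 5. LLS2 had the highest IGFBP3 level of all ewes in 8 of the 9 cell types with cells of all 6 ewes. Blood endothelial-like cells had a mean level of 1.49 ± 1.14, and the arterial cluster 11 had 5.20 ± 2.39. This overlapped the IGFBP3 levels of cluster 3 (4.77 ± 3.59, lower than cluster 11 in 4 of 6 ewes) and of cluster 18 (2.19 ± 1.64), and lay 15.96-fold above cluster 2 and 30.03-fold above cluster 4 in 6 of 6 ewes without overlap. In the stroma, cluster 9 had IGFBP3 levels of 3.56, 1.97 and 6.52 in HLS1 to HLS3 and 2.28, 32.5 and 6.80 in LLS1 to LLS3, and cluster 5 had a mean of 0.411 ± 0.115, lower than cluster 9 in 6 of 6 ewes by 13.1-fold.

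IGFBP6, a binding protein with a preference for IGF2, had its highest level in the stroma (3.22 ± 1.55), followed with overlap by perivascular-like cells (2.45 ± 0.972). Stromal cluster 9 had IGFBP6 levels of 13.6, 9.67 and 8.70 in HLS1 to HLS3 and 14.6, 5.69 and 5.29 in LLS1 to LLS3, and cluster 5 had a mean level of 0.621 ± 0.267, 15.6-fold lower in 6 of 6 ewes. Stromal cluster 9 was thus the highest of the 3 stromal clusters in mean level for IGF1, IGFBP3 and IGFBP6, and the lowest for IGFBP2. IGFBP7, a related protein with low affinity for IGF, had mean levels of 5.34 ± 1.64 in perivascular-like, 5.08 ± 1.496 in blood endothelial-like and 3.49 ± 0.969 in stromal-like cells, each overlapping the next, and 1.13 ± 0.458 in granulosa-like cells. Stromal cluster 9 had an IGFBP7 level of 5.30 ± 1.83. Within the blood endothelium the CA4-led cluster 2 was at 6.97 ± 1.26, above the arterial cluster 11 at 4.09 ± 1.32 by 1.75-fold in 6 of 6 ewes, the opposite order to IGFBP3.

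IGFBP4, a main substrate of PAPPA, and PAPPA itself had low levels in every named type. The highest IGFBP4 levels were 0.2004 ± 0.104 in lymphatic endothelial-like and 0.155 ± 0.0239 in stromal-like cells, and the granulosa level of 0.00496 ± 0.00152 rested on 14 UMI. The highest PAPPA level of the named types was in Schwann-like cells, at 0.759 and 1.32 UMI per 10000 in HLS1 and HLS2 and 0.671, 0.166 and 0.709 in LLS1 to LLS3, on 39 UMI in all, 2 of them in HLS3, which had too few Schwann-like cells for a value. Lymphatic endothelial-like cells followed at 0.108 ± 0.066, epithelial-like cells at 0.0726 ± 0.0863 (n = 4), perivascular-like cells at 0.0598 ± 0.0323 and granulosa-like cells at 0.0397 ± 0.0273. In theca-like cells only 2 PAPPA UMI were counted.

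The granulosa-like cells were divided by markers into early-type (441 cells), INHA-type (469 cells, named for the inhibin alpha gene) and mural-type cells (749 cells), and the remaining granulosa-like sub-clusters stayed unnamed. IGFBP2 and IGFBP5 are among the genes by which the study itself, on these same ewes, told granulosa states apart, so their contrast between states is not independent of that choice. Of the INHA-type cells, 181 of 469 were in sub-cluster 9, led by cell cycle genes, and 199 of the 203 cells of mural sub-cluster 7 came from LLS2. Mural sub-clusters 7, led by MX1 and ISG15, and 8, led by MMP9 and FN1, had 8 and 5 mural markers raised. Of those markers, 0 were among their leading genes. The plot of levels in granulosa states follows each ewe from state to state.

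IGFBP2 had levels of 15.9, 17.3 and 14.9 UMI per 10000 in early-type cells of the HLS ewes and 15.6, 13.99 and 13.8 in those of the LLS ewes, a mean of 15.3 ± 1.31. INHA-type cells had a mean IGFBP2 level of 14.8 ± 3.50, higher or lower than early-type cells in 3 of 6 ewes each. In mural-type cells the level was 7.17, 3.76 and 4.28 in HLS1 to HLS3 and 5.80, 3.82 and 4.66 in LLS1 to LLS3, a mean of 4.92 ± 1.33. The mural level was 3.18-fold below the early-type and 3.02-fold below the INHA-type one, in 6 of 6 ewes and without overlap.

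IGFBP5 ran the other way. Its level was 33.7, 57.3 and 71.7 UMI per 10000 in mural-type cells of the HLS ewes and 49.0, 49.7 and 34.9 in those of the LLS ewes, a mean of 49.4 ± 14.3. Early-type cells had IGFBP5 levels of 7.83, 4.61 and 3.79 in HLS1 to HLS3 and 3.06, 2.54 and 6.24 in LLS1 to LLS3, and INHA-type cells had 0.675, 0.354 and 0.577 in HLS1 to HLS3 and 0.449, 0.380 and 0.240 in LLS1 to LLS3. The ranges of the 3 states did not overlap: mural-type lay 10.98-fold above early-type, and early-type 10.04-fold above INHA-type cells. At least 1 IGFBP5 UMI was seen in 92.2% of mural-type, 48.8% of early-type and 24.7% of INHA-type cells, and in 22.4% of macrophage-like cells at a median depth of 6576 UMI, so the INHA-type share was close to that of a type with the lowest level. Early-type, INHA-type and mural-type cells had median depths of 4147, 11530 and 13120 UMI.

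**Figure D3:**
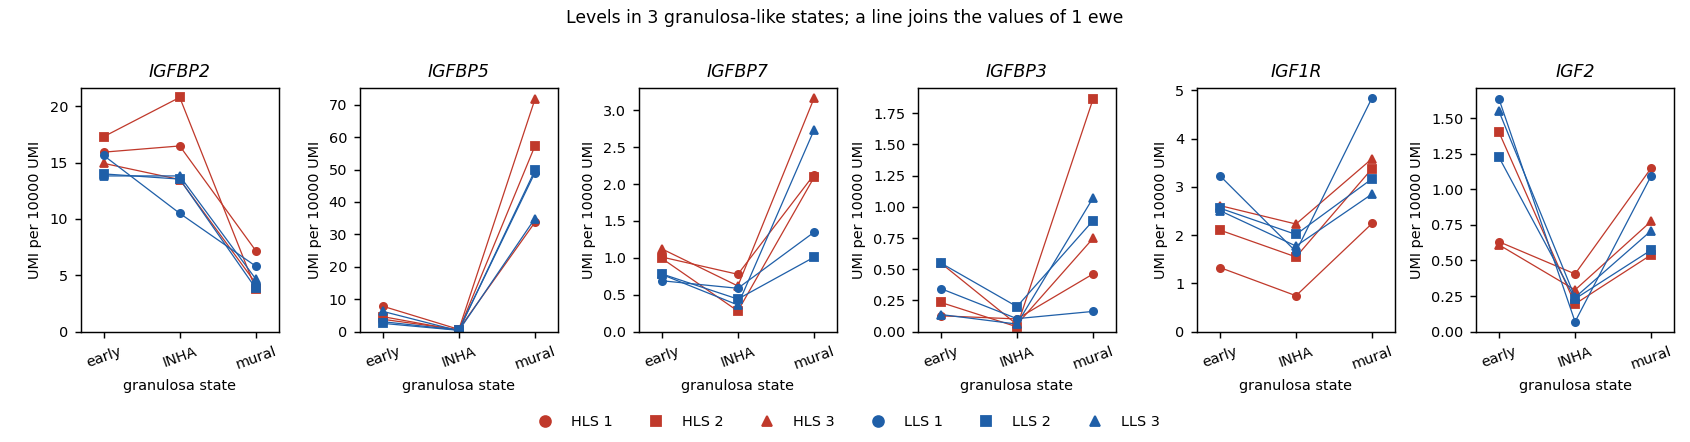
Levels (y axis, UMI per 10000 UMI) of IGFBP2, IGFBP5, IGFBP7, IGFBP3, IGF1R and IGF2 in early-type, INHA-type and mural-type granulosa-like cells (x axis), with a line joining the 3 values of 1 ewe. In every ewe IGFBP2 is lowest and IGFBP5 highest in mural-type cells (means 4.92 and 49.4), and IGF1R is highest there (3.34) and lowest in INHA-type cells (1.66).

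IGF1R, IGF2, IGFBP3, IGFBP6 and IGFBP7 had their lowest mean levels in INHA-type cells. The level of IGF1R was at 2.24, 3.38 and 3.58 UMI per 10000 in mural-type cells of the HLS ewes and 4.85, 3.17 and 2.85 in those of the LLS ewes, and at 2.39 ± 0.634 in early-type and 1.66 ± 0.513 in INHA-type cells, with the order mural, early, INHA in 6 of 6 ewes and overlapping ranges. IGF2 had levels of 1.18 ± 0.452 in early-type, 0.807 ± 0.260 in mural-type and 0.239 ± 0.111 in INHA-type cells, 4.95-fold from early-type to INHA-type in 6 of 6 ewes. The level of IGFBP7 was 2.08 ± 0.810, 0.895 ± 0.170 and 0.510 ± 0.184 in mural-type, early-type and INHA-type cells, in this order in 6 of 6 ewes. IGFBP3 (0.866 ± 0.585, 0.323 ± 0.192 and 0.0933 ± 0.0584) and IGFBP6 (0.739 ± 0.257, 0.326 ± 0.148 and 0.0668 ± 0.134) had the same order of means.

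The granulosa-like cells of the 6 ewes held these states in different shares. Mural-type cells gave 81.7, 13.6 and 20.5% of the granulosa-like UMI in HLS1 to HLS3 and 30.9, 60.4 and 31.0% in LLS1 to LLS3. INHA-type cells gave 62.2% in HLS2 and between 7.61% and 16.7% in the other 5 ewes. HLS1 and LLS2, the ewes with the largest mural shares, had the highest granulosa IGFBP5 levels (28.1 and 32.0) and the lowest granulosa IGFBP2 levels (9.05 and 9.70) of the 6.

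Counted as a share of the summed UMI of the 6 binding protein genes, the types differed in which gene made up most of the pool. IGFBP2 took 92.7 ± 2.87% of it in INHA-type and 71.5 ± 6.47% in early-type cells, while IGFBP5 took 84.3 ± 5.58% in mural-type cells. IGFBP5 also took 86.2 ± 11.7% in lymphatic endothelial-like, 72.0 ± 11.1% in theca-like and 54.4 ± 4.65% in stromal-like cells. Perivascular-like cells were more mixed, with 44.8 ± 7.55% IGFBP5, 26.8 ± 3.43% IGFBP7 and 13.4 ± 5.36% IGFBP2, and blood endothelial-like cells were led by IGFBP7 at 55.9 ± 7.02%. The summed level of the 6 genes was 58.0 ± 13.8 UMI per 10000 in mural-type, 21.5 ± 2.64 in early-type and 15.9 ± 3.47 in INHA-type cells. It was 39.3 ± 13.5 in lymphatic endothelial-like, 28.4 ± 9.53 in stromal-like and 0.851 ± 0.322 in macrophage-like cells.

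**Figure D4:**
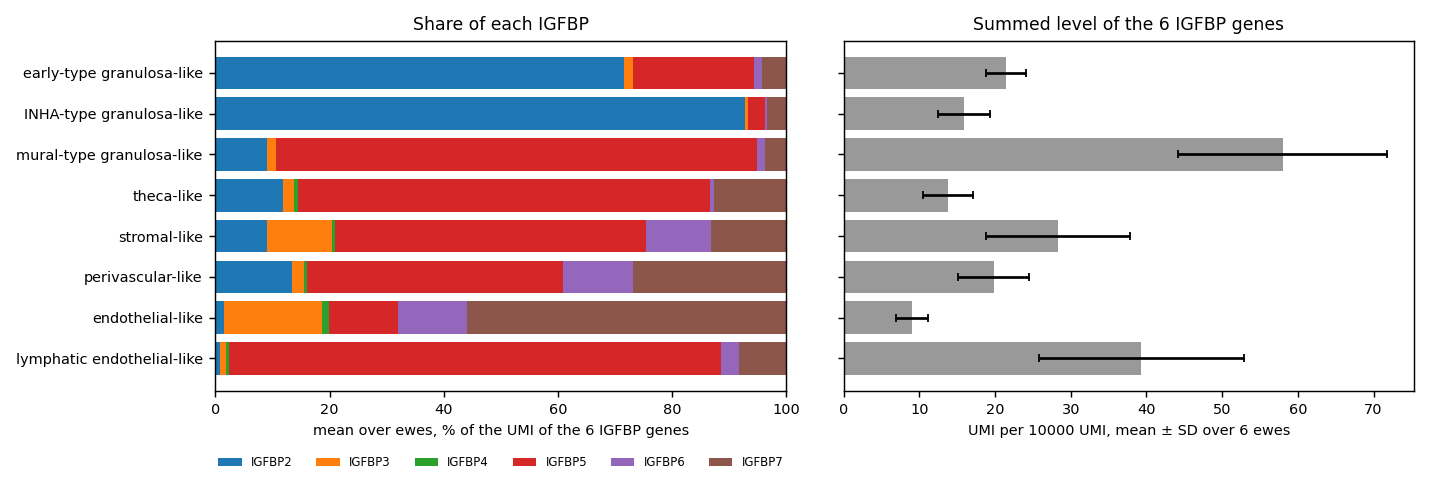
Left, share of each of the 6 IGFBP genes in their summed UMI (x axis, percent, mean over ewes) by granulosa state and cell type (y axis); right, summed level of the 6 genes (UMI per 10000 UMI, mean ± SD over 6 ewes). IGFBP2 makes up most of the pool in INHA-type and early-type cells (92.7% and 71.5%) and IGFBP5 in mural-type cells (84.3%), where the summed level is 58.0.

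For each member except PAPPA, the genes with the most similar pattern were found by Pearson's r over 63 sums of cells, 1 per ewe and type over 11 types, among 13069 genes. Sums of the same ewe share a library and its depth, so r is given as a description. For the ligands they were TNFAIP8L3 (r = 0.798), SFRP1 (0.760) and SEMA3D (0.758) for IGF1, and LOC101102683 (0.904), MYLK (0.890) and FBLN5 (0.886) for IGF2. IGF1R was most like CENPV (0.860), ZNF462 (0.845) and NAV2 (0.839). Among the binding proteins, IGFBP2 was most like EGFR (0.868), RGS7 (0.855) and TPM1 (0.853), and IGFBP3 like RDH10 (0.728), PDGFD (0.714) and PLXDC2 (0.709). IGFBP4 was most like HOXD9 (0.786), TSHZ2 (0.783) and ELN (0.782), and IGFBP5 like PAWR (0.871), ZFPM2 (0.863) and CCDC3 (0.854). For IGFBP6 they were SOCS3 (0.811), TGFB1I1 (0.806) and IGFBP7 (0.788), and for IGFBP7 FSTL1 (0.870), EHD2 (0.860) and FERMT2 (0.858). IGFBP2 and IGFBP5 are neighbouring genes in the RefSeq sheep annotation ARS-UI_Ramb_v3.0, although their orders of types and states differed as described.

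Of 31 other genes of the pathway on the list, 30 were found, and H19 was not analysed here. The genes named next were picked for their levels after these were seen. Among the receptors beside IGF1R, INSR, the insulin receptor, had a granulosa level of 1.45 ± 0.432, and IGF2R, which takes up IGF2 for degradation, had levels of 1.72 ± 0.531 in mural-type and 1.70 ± 0.659 in perivascular-like cells. Among the adaptors that link IGF1R to its kinase cascades, IRS1 was at 0.626 ± 0.132 in granulosa-like cells, IRS2 at 1.13 ± 0.202 in granulosa-like and 1.06 ± 0.277 in macrophage-like cells, and SHC1 at 3.27 ± 0.289 in blood endothelial-like cells. FOXO1, a transcription factor that AKT excludes from the nucleus, was at 4.92 ± 1.19 in mural-type, 3.94 ± 0.937 in INHA-type and 1.42 ± 0.429 in early-type cells. Of the genes for protease control, STC1, an inhibitor of PAPPA, was at 3.05 ± 1.71 in theca-like cells, and HTRA1, a serine protease that cuts binding proteins, was at 2.22 ± 1.99 in mural-type and 0.0575 ± 0.0332 in INHA-type cells. PAPPA2, IGF2BP1 and IGF2BP3 were near 0 in every type.

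The question of the study's design was whether ewes of high and low litter size differ. Each ewe was 1 replicate, and the counts of a type were summed per ewe and tested with edgeR's quasi-likelihood test, with p-values adjusted over all genes of the type by the Benjamini-Hochberg method. The p-values set the difference between 3 HLS and 3 LLS ewes against the spread among ewes within the groups. Where HLS and LLS levels are said below not to overlap, this describes 3 against 3 ewes and is not a test. In all other tested pairs of member and type the levels overlapped. The share of all genes without overlap was not computed, so no weight is put on it. In 72 member tests over 9 types and states, no member was called at an adjusted p under 0.05, with a smallest adjusted p of 0.823. An unadjusted p under 0.05 was reached in 6 of the 72 tests (8.33%), beside 3.72% of 94254 tests of all genes. These tests are not independent, since the granulosa states are parts of the granulosa-like cells and all rest on the same ewes. IGFBP2 and PAPPA each occur more than once among the 6. DESeq2 called 1 member (IGFBP2 in perivascular-like cells) and gave 8 unadjusted p under 0.05 among members, beside 2.9% of its tests of all genes. Of all genes, the share called after adjustment was 0% in every comparison except early-type cells, where it was 0.0256% (1 of 3910). Of the 30 other pathway genes, 0 were called in 189 tests, 11 had an unadjusted p under 0.05, and DESeq2 called 0 with 9 below that limit.

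By type or state, 1 of 9 members tested in granulosa-like cells had an unadjusted p under 0.05, where 4.88% of all genes did. The count was 1 of 5 in early-type cells (4.55% of all genes), 1 of 5 in INHA-type cells (4.6%), 0 of 7 in mural-type cells (3.6%) and 1 of 9 in theca-like cells (3.59%). In stromal-like cells it was 0 of 9 (4.87% of all genes) and in perivascular-like cells 1 of 10 (2.84%). Endothelial-like cells, lymphatic ones included, had 1 of 10 (1.32%), and immune-like cells, macrophages included, had 0 of 8 (4.63%). Every such count was 0 or 1. The median log2 difference of the members, HLS over LLS, ranged from −0.15 in stromal-like cells (2 of 9 estimates above 0) to 0.54 in INHA-type cells (4 of 5), where the medians of all genes were −0.01 and 0.00. It was 0.33 in mural-type (6 of 7), 0.27 in immune-like (6 of 8) and 0.09 in granulosa-like cells (6 of 9). Single ewes moved these medians: in granulosa-like cells the median was −0.46 without HLS1 and 0.44 without LLS2, and in stromal-like cells −0.04 without LLS2. The INHA-type median also moved with the processing. It was −0.10 with doublets kept, −0.11 at a lower clustering resolution and −0.14 at a mitochondrial limit of 20%, each with 2 of 5 estimates above 0. In all other settings it was above 0, from 0.12 to 0.61.

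IGFBP2 gave the smallest p among members. Its level in perivascular-like cells was 3.12, 3.21 and 3.71 UMI per 10000 in HLS1 to HLS3 and 1.89, 1.52 and 1.84 in LLS1 to LLS3, without overlap. The log2 difference was 1.0 ± 0.19 (SE; 95% interval 0.58 to 1.42), with an adjusted p of 1 by edgeR. By DESeq2 the adjusted p was 0.0219, and over 19 alternatives it ranged from that value to 1. IGFBP2 was higher in the MYH11-led cluster 12, and this cluster gave 17.8, 25.9 and 53.4% of the perivascular UMI in HLS1 to HLS3 and 15.5, 20.2 and 16.7% in LLS1 to LLS3. In cluster 8 alone the log2 difference was 0.62 ± 0.31 (95% interval −0.07 to 1.32), and the part of cluster 12 in the difference of the whole type was not tested further.

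The IGFBP2 values of other types are set beside these, since every comparison rests on the same 6 ewes. In granulosa-like cells the log2 difference was 0.58 ± 0.33 (95% interval −0.17 to 1.33) with overlapping levels. In INHA-type cells IGFBP2 levels were 16.5, 20.8 and 13.5 in HLS1 to HLS3 and 10.5, 13.5 and 13.8 in LLS1 to LLS3, and the log2 difference was 0.61 ± 0.26 (95% interval 0.04 to 1.18, adjusted p = 0.940). Without the cell cycle sub-cluster 9 it was 0.68 ± 0.24 (adjusted p = 0.850). Over 19 alternatives, this one included, it ranged from 0.41 to 0.80, with unadjusted p up to 0.182 by edgeR or DESeq2. HLS1 and LLS1 gave only 19 and 24 of the 469 INHA-type cells, and HLS2 gave 208. In endothelial-like cells the IGFBP2 levels were 0.150, 0.153 and 0.178 in HLS1 to HLS3 and 0.0498, 0.134 and 0.120 in LLS1 to LLS3, without overlap, at a log2 difference of 0.77 ± 0.35 (95% interval −0.05 to 1.59, adjusted p = 0.999). These levels were low: the blood endothelial-like mean was 0.129, beside 0.132 in macrophage-like and 14.5 in granulosa-like cells. The IGFBP2 log2 difference was smaller in early-type (0.24 ± 0.24), mural-type (0.24 ± 0.35), theca-like (0.34 ± 0.60), stromal-like (0.36 ± 0.58) and immune-like cells (0.40 ± 0.49). Each of these had overlapping levels and a 95% interval that held 0.

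PAPPA, on few UMI, was lower in HLS ewes in both types where its unadjusted p was under 0.05. In perivascular-like cells, the other type where PAPPA was tested, the log2 difference was −0.18 ± 0.52 (95% interval −1.34 to 0.99). Its granulosa level was 0.0283, 0.00711 and 0.0164 UMI per 10000 in HLS1 to HLS3 (11, 3 and 14 UMI) and 0.0665, 0.0452 and 0.0748 in LLS1 to LLS3 (12, 27 and 18 UMI), a log2 difference of −1.62 ± 0.53 (95% interval −2.83 to −0.41, adjusted p = 0.936). In endothelial-like cells the level was 0.00136, 0.00282 and 0.00162 in HLS1 to HLS3 and 0.00752, 0.0254 and 0.00496 in LLS1 to LLS3, a log2 difference of −2.46 ± 0.73 (95% interval −4.17 to −0.76, adjusted p = 0.999). Of these 86 UMI, 71 came from lymphatic cells, so the share of lymphatic cells enters this value, and its part in the difference was not tested. The groups did not overlap in granulosa-like or in endothelial-like cells. PAPPA levels of granulosa sub-clusters rest on the few granulosa UMI given above. Sub-clusters 1, 4 and 10 were picked after their values were seen. Outside them, PAPPA pooled over ewes ranged from 0 in sub-cluster 5 to 0.0742 in sub-cluster 3. It was at 0.126 in sub-cluster 10, with 106 of its 142 cells from LLS1. In sub-cluster 1 it was at 0.0046, with 279 of 438 cells from HLS3. Sub-cluster 4 had 0, with 132 of 320 cells from HLS3 and 98 from LLS3. The part of these shares in the granulosa difference was not tested.

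**Figure D5:**
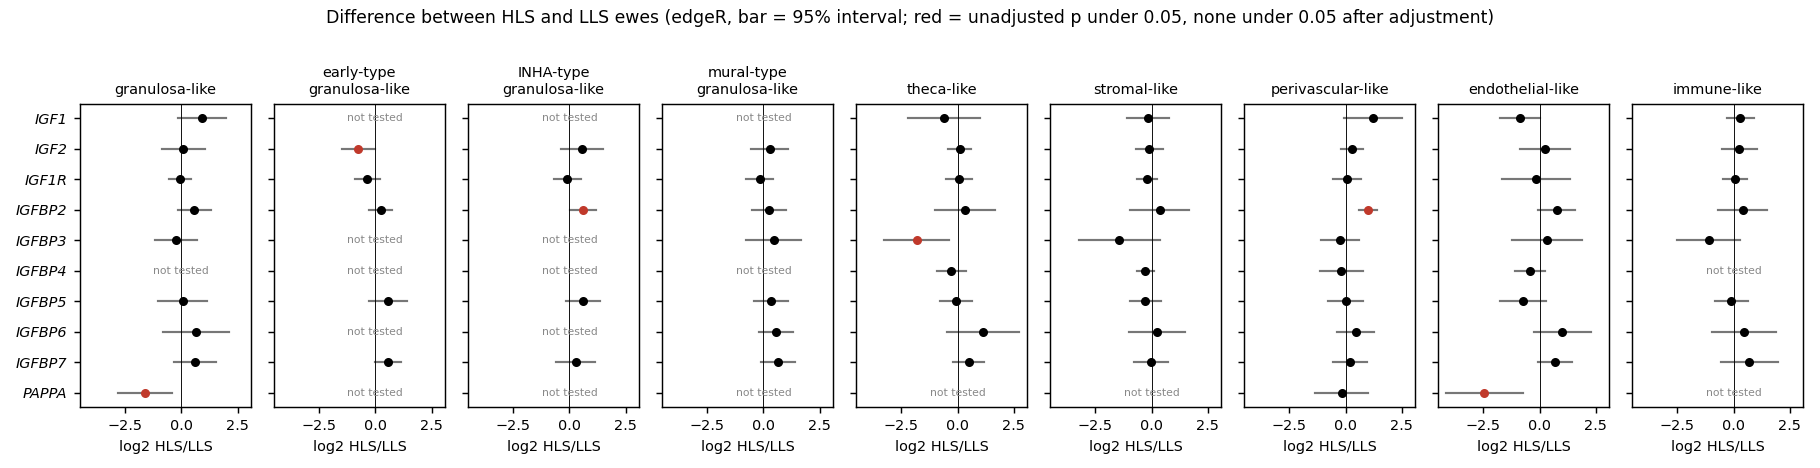
Log2 difference between HLS and LLS ewes (x axes, positive where HLS is higher) for each member (y axis) in 9 types and states, with 95% intervals from edgeR and red points for an unadjusted p under 0.05. The 6 red points include IGFBP2 in perivascular-like cells (1.001) and PAPPA in endothelial-like cells (−2.46), and no adjusted p is under 0.05.

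No ligand or receptor difference between the groups was called. The level of IGF2 in early-type cells was 0.632, 1.40 and 0.610 UMI per 10000 in HLS1 to HLS3 and 1.64, 1.23 and 1.55 in LLS1 to LLS3, overlapping, with a log2 difference of −0.76 ± 0.34 (95% interval −1.49 to −0.03, adjusted p = 0.994). Early-type sub-cluster 11, with RGS5 among its leading genes, had IGF2 at 1.38 pooled over ewes, against 0.934 in early-type sub-cluster 3. Sub-cluster 11 held 7 of 26, 6 of 44 and 0 of 145 early-type cells in HLS1 to HLS3. In LLS1 to LLS3 it held 17 of 47, 67 of 112 and 18 of 67. Its part in the difference was not tested. In perivascular-like cells the IGF2 log2 difference was 0.28 ± 0.22, and in the RGS5-led cluster 8 alone, where the levels given above did not overlap, it was 0.63 ± 0.26 (95% interval 0.05 to 1.21), an alternative chosen after the levels by cluster were seen. IGF1 in granulosa-like cells, among the types lowest in IGF1, was at 0.0642, 0.0355 and 0.0363 in HLS1 to HLS3 and 0.0166, 0.0318 and 0.0291 in LLS1 to LLS3, without overlap, at a log2 difference of 0.92 ± 0.46 (95% interval −0.15 to 1.98, adjusted p = 0.936). In perivascular-like cells the IGF1 log2 difference was 1.21 ± 0.58 (95% interval −0.09 to 2.51). It had the opposite sign in endothelial-like cells, lymphatic ones included, at −0.87 ± 0.38 (95% interval −1.75 to 0.02). The mean IGF1 level was 9.79 in lymphatic and 0.0462 in blood endothelial-like cells, so the share of lymphatic cells enters this value. Lymphatic cells numbered 53, 141 and 56 in HLS1 to HLS3 and 206, 224 and 111 in LLS1 to LLS3. The part of this share in the IGF1 difference was not tested. No IGF1R log2 difference exceeded 0.36 in size in any of the comparisons, but its 95% intervals held larger differences. They ran from −1.69 to 1.33 in endothelial-like cells and from −0.93 to 0.22 in early-type cells.

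For the other binding proteins, single ewes weighed heavily. IGFBP3 in theca-like cells was at 0.0543, 0.209 and 0.0845 UMI per 10000 in HLS1 to HLS3 and 0.407, 0.899 and 0.118 in LLS1 to LLS3, a log2 difference of −1.81 ± 0.65 (95% interval −3.25 to −0.37, adjusted p = 0.962), which without LLS2 was −0.89 ± 0.62. In stromal-like cells the IGFBP3 log2 difference was −1.43 ± 0.79 (adjusted p = 0.823), and without LLS2 it turned to 0.46 ± 0.24 (95% interval −0.11 to 1.02). Without the doubtful stromal cluster 1 it was −2.31 ± 0.88 (adjusted p = 0.797). Cluster 9, the stromal cluster with the highest mean IGFBP3 level, held 625 of the 1386 stromal-like cells of LLS2. The part of this share in the stromal difference was not tested. IGFBP4 in stromal-like cells was at 0.129, 0.149 and 0.126 in HLS1 to HLS3 and 0.171, 0.184 and 0.170 in LLS1 to LLS3, without overlap, at a log2 difference of −0.28 ± 0.17 (95% interval −0.66 to 0.11). IGFBP7 in early-type cells was at 1.01, 0.993 and 1.12 in HLS1 to HLS3 and 0.689, 0.782 and 0.775 in LLS1 to LLS3, without overlap, at 0.55 ± 0.27 (95% interval −0.02 to 1.12). IGFBP5 in granulosa-like cells had a log2 difference of 0.06 ± 0.48. HLS1 had the highest IGFBP7 level in 8 and the highest IGFBP6 level in 7 of the 9 cell types with cells of all 6 ewes.

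Among the other pathway genes, the smallest unadjusted p in each comparison belonged to AKT1 in granulosa-like cells (log2 difference 0.46 ± 0.19) and in early-type cells (0.89 ± 0.41), and to AKT2, its paralogue, in mural-type cells (−0.61 ± 0.26). AKT1 and AKT2 are kinases downstream of IGF1R. IGF2R had it in stromal-like cells, where its level was 0.420, 0.584 and 0.724 in HLS1 to HLS3 and 0.976, 1.14 and 0.792 in LLS1 to LLS3 (−0.68 ± 0.19, adjusted p = 0.823), and in endothelial-like cells (−0.65 ± 0.20). IGF2BP2, an RNA-binding protein named for IGF2 mRNA, had it in perivascular-like cells (−1.48 ± 0.41), SHC1 in theca-like cells (−0.52 ± 0.21), IRS2 in INHA-type cells (0.53 ± 0.27) and HTRA1 in immune-like cells (0.72 ± 0.22, adjusted p = 0.835). In mural-type cells the IRS2 log2 difference was −0.44 ± 0.20 (adjusted p = 0.991), and the difference between the 2 states was not tested.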

How the data were processed

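The authors prepared 1 Chromium 3′ v3 library per ewe and deposited UMI counts per gene and cell barcode; the study used Cell Ranger with the STAR aligner, and the genome build is not given in the sources used here. From these deposited counts, cells were kept at the limits the study states. These were at least 200 genes, at least 1000 UMI, and a log10 of genes divided by log10 of UMI of at least 0.7. Kept cells also had at most 10% mitochondrial and 5% haemoglobin UMI. Of 52290 barcodes, 38464 passed, and 2007 scored as doublets against simulated doublets were removed. Clustering used 2000 variable genes without the IGF system and other pathway genes, 30 principal components, 20 neighbours and the Leiden method (leidenalg 0.10.2), and clusters were named "-like" from marker lists. The study's own cell names were not used here, so types may differ from the study's.

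Total UMI per ewe ranged from 43329214 to 75549906. A level is UMI per 10000 UMI over the summed cells of a type in an ewe, given where at least 10 cells were present. Folds between types are means over ewes of log2 ratios with a pseudocount of 0.01. Sums were tested between HLS and LLS with edgeR 4.0.16 (quasi-likelihood, TMM scaling, filter on low counts), with DESeq2 1.42.0 as an alternative. The edgeR code was also run on simulated counts. These gave every gene the same relative spread between ewes and every ewe the same cell make-up. They are cleaner than the real sums, so nothing on the power of the real tests is drawn from them. The study itself compared cells by rank-sum tests. Other alternatives were no filter, no TMM scaling, a replicate block, other cell filters and clusterings, and each ewe left out. The named genes are the 10 members, the pathway gene with the smallest unadjusted p in each type, and the 3 genes most correlated with each member (those for PAPPA are not reported here); other pathway genes and clusters were named after their values were seen. The members and lists were chosen with earlier results of these data known.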

Additional observations from a re-analysis of the deposited data

How the results depend on the processing

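Across 179 fits in 21 settings, the count of members called between HLS and LLS stayed at 0 except that 1 was called in perivascular-like cells with DESeq2 (IGFBP2) and 1 in theca-like cells with no filter on low counts (IGFBP3, adjusted p = 0.0168); with each ewe left out in turn it ranged from 0 to 0 in every comparison. Of the other pathway genes, 1 was called with no filter, IGFBPL1 in theca-like cells (log2 difference −2.34, adjusted p = 0.0168). The 18 log2 differences followed were chosen for a small edgeR p in these same data. They were the members with an unadjusted p under 0.05 and, per comparison, the member and the pathway gene with the smallest p. The alternatives reuse the same ewes, so kept directions were likely from the start. Of 334 alternative values for these differences, 331 kept their direction. The exceptions were IGF2 in early-type cells, 0.12 when cells were centred per ewe before clustering, and, without LLS replicate 2, IGFBP3 at 0.46 in stromal-like and 0.23 in immune-like cells; with 1 ewe left out, these ranged from −1.88 to 0.46 and from −1.57 to 0.23. Over all genes, calls rose from 0 or 1 to 178 in immune-like, 96 in mural-type, 48 in INHA-type, 44 in early-type, 36 in theca-like and 3 in perivascular-like cells with no filter, and to 28 in immune-like, 6 in early-type, 6 in endothelial-like, 3 in mural-type and 2 in perivascular-like cells with DESeq2. The causes were not tested. Leaving out TMM scaling moved the median of all genes to −0.17 in granulosa-like and theca-like and −0.13 in INHA-type cells. Replicate numbers are not stated to pair the ewes, and same-number correlations of deviations from the group mean ranged from −0.349 to 0.3. For number 3 they were all above 0, from 0.0234 to 0.3. HLS3 was most like LLS3 among the LLS ewes in every comparison except immune-like cells. With the replicate block 0 members were called in every comparison. The mean perivascular IGF2 level was 39.1 with centring and 17.6 as a mean over cells. The type with the highest mean changed for IGF1R (granulosa-like or epithelial-like), IGFBP6 (perivascular-like), IGFBP7 (endothelial-like) and, as a thinned share of cells, IGF2 (theca-like) in some settings. A further alternative, chosen after seeing the data, left out clusters that were shallow, from few ewes, led by cell cycle genes or, in the stroma, led by a perivascular marker: 0 members were called. In endothelial-like cells 4 of 9 members, IGFBP2 (0.63), IGFBP4 (−0.63), IGFBP5 (−1.12) and IGFBP7 (0.70), then had an unadjusted p under 0.05, beside 3.06% of all genes there, with an adjusted p of 0.935. Lymphatic cells stayed in these sums. IGFBP5, IGFBP4 and IGFBP2 were higher in them than in all blood endothelial-like cells (34.92 against 1.096, 0.2004 against 0.1061 and 0.2265 against 0.1292). IGFBP7 was lower (2.555 against 5.075). The part of the lymphatic share in these differences was not tested. Elsewhere the unadjusted p was under 0.05 for 1 member each: PAPPA in granulosa-like (−1.62), IGFBP2 in INHA-type (0.68), IGFBP3 in stromal-like (−2.31) and IGF2 in perivascular-like cells (0.63). PAPPA in all types, and IGFBP4 in granulosa-like and immune-like cells, are limited by depth.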

Other observations

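Granulosa-like cells outside the 3 named states gave between 6.60% and 55.5% of the granulosa UMI of an ewe, and IGFBP2 reached its highest level there. Sub-cluster 4 (320 cells), led by CCN3, ANGPT2 and NMB and with IGFBP2 itself among its leading genes, had IGFBP2 levels of 39.9 and 44.2 UMI per 10000 in HLS2 and HLS3 and 34.4 and 32.3 in LLS2 and LLS3, at an IGFBP5 level of 1.54 ± 1.42 (SD, 4 ewes). Sub-cluster 1 (438 cells), led by PTX3, held both binding proteins, with IGFBP2 at 21.4 ± 7.22 and IGFBP5 at 15.4 ± 11.7 over 5 ewes. In these 5 ewes IGFBP5 was 6.56 and 10.99 in HLS2 and HLS3 and 27.2, 28.5 and 3.59 in LLS1 to LLS3, and IGFBP2 was lowest in LLS1 (11.7) and LLS2 (15.9), the ewes with the highest IGFBP5. Within the mural-type state, sub-cluster 8, led by MMP9 and FN1, had an IGFBP5 level of 59.4 ± 23.6 and an IGFBP2 level of 1.86 ± 0.814 (4 ewes).

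Of the 2 cycling clusters, which were in no comparison, cluster 17 had an IGF2 level of 10.5 ± 4.93, close to that of theca-like cells, and cluster 13 one of 1.43 ± 0.684. IGF1R was at 0.752 ± 0.256 in cluster 17 and 0.153 ± 0.153 in cluster 13, both below the granulosa mean. Unnamed cluster 27, led by the oxytocin gene OXT, came from LLS3 in 107 of its 108 cells. Its PAPPA level was 0.872 and its IGFBP5 level 0.0581 UMI per 10000, both from that 1 ewe, against PAPPA at 0.0748 and IGFBP5 at 12.3 in the granulosa-like cells of LLS3.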
